A study of Homo sapiens with 6 samples.

Results

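The genes described here encode 42 factors that build small nucleolar ribonucleoproteins (snoRNPs) and ribosomes, out of 11227 named genes with a row in at least 1 of 3 tables of ribosome footprints. They were chosen by name, and each gene is represented by its RefSeq messenger row with most summed depth. All 42 had a row in every table and stood above the level minimum, the lower quartile of row sums, in every table. By role they comprise 4 box C/D core proteins, 4 box H/ACA core proteins, 3 assembly factors, 3 nucleolar RNA-binding proteins, 14 small subunit factors, 11 large subunit factors and 3 components of RNA polymerase I transcription.

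The cells were CHL-1, a human melanoma line kept in culture, grown in DMEM with serum. The groups were a CHL-1 line edited with CRISPR at SNORD50A/B, CHL-1 cells treated for 20 minutes with AZC at 10 mM, a proline analog that is built into new proteins, and the proteasome blocker MG132 at 20 µM, and untreated parental CHL-1, each with 2 libraries, 1 of them labelled as depleted of ribosomal RNA. A line edited at a control locus was not analysed here, and the sources used here do not say whether the edited cells are 1 clone. Each condition has 1 deposited table and no column per library, so no value below has a replicate error and every difference is between single tables, without a test.

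Box C/D snoRNPs carry the guide RNAs that direct ribose methylation of ribosomal RNA, and SNORD50A and SNORD50B are such guides. Box H/ACA snoRNPs direct pseudouridylation. Both kinds work in the nucleolus, where RNA polymerase I transcribes the ribosomal RNA precursor and where processing complexes fold, cut and pack it into the small and the large subunit.

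An E-box was frequent in the promoters of these genes, which played no part in choosing them. Its sequences are shown for those snoRNP core genes and genes past 1.5-fold in a comparison that hold it. RefSeq promoters (GRCh38.p14, 250 bases before to 50 after each start) were found for 35 of the 42, with 44 starts. BOP1, DDX18, NOLC1, NOP58, RRP12, RRS1 and SNU13 had no entry. The E-box CACGTG, which reads the same on both strands and is known as a binding hexamer of MYC family proteins, was in 40.9% of these 44 promoters and in 7.26% of all 35116. It was in 9.98% of the promoters of genes compared between treated and parental cells, in 5.13% of ribosomal protein promoters and in 22.8% of the promoters of the other ribosome biogenesis genes listed for this work. In all, 17 genes held 20 copies, and 17 of the copies began within 50 bases of a start. Each line gives 26 bases, 5′ to 3′ on the strand of the gene, with the E-box in capitals.
FBL: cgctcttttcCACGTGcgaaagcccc
NOP10: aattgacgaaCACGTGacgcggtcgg
GAR1: gccagaggggCACGTGgcgccggtga
UTP4: agcgcgcgcgCACGTGgggccggggc
UTP18: agcgaggttcCACGTGagcgcctgcg
MRTO4: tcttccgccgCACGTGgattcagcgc
These windows lie at chr19:39846358-39846383 (minus strand) for FBL, chr15:34343132-34343157 (minus) for NOP10, chr4:109815783-109815808 (plus) for GAR1, chr16:69132623-69132648 (plus) for UTP4, chr17:51260540-51260565 (plus) for UTP18 and chr1:19251809-19251834 (plus) for MRTO4. A match describes letters in a window and not a bound site. Genes with and without an E-box had medians of log2 ratio of 0.03 (n = 17) and 0.05 (n = 18) for treated over parental cells, and of -0.02 in both sets for the edited over the parental line.

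A start with C and 4 further pyrimidines, the letters of the 5′ terminal oligopyrimidine tract of translation machinery messengers, was in 60.3% of ribosomal protein promoters, in 4.07% of all promoters and in 4 of the 44 promoters here. The 4 are given from 12 bases before the start, with the first 5 transcribed bases in capitals, because this start is common among ribosomal protein genes, whose levels are set beside theirs.
FBL: cgcgcctgcgctCTTTTccacgtgcg
NPM1: ggagcctgcgtcCTTTCcctggtgtg
DDX21: gtggggaactacCTCTTcctctccac
EBNA1BP2: cctcccctttccCCTCCcccggggtc
FBL, NPM1, DDX21 and EBNA1BP2 stood at log2 ratios of 0.03, 0.04, -0.12 and -0.18 in treated over parental cells. The 79 ribosomal protein genes had a median of -0.26 in that comparison, beside -0.05 over all genes. Of them 12 (15.2%) were 1.5-fold or more lower, beside 11.2% of all genes.

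Levels below are normalised depth: read depth summed over the 400 bins of a gene's row, per 1000000 of the summed depth of that table. Levels are not per length and are compared only within a gene. Log2 ratios in coding bins alone, or in a part of them, are scaled instead to the total of each table in those same bins. Summed depth, in units of 1000000, came to 586.5 for the edited line, 367.3 for AZC + MG132 and 473.7 for the parental line. The 42 genes took 0.639%, 0.612% and 0.586% of it. NCL weighs heavily in these shares, with a level of 1824 in the edited line and 1240.2 in the parental line, while 25 of the 42 genes were lower in the edited line. Their summed depth per gene was lowest for NIP7 in the edited table (10101), for UTP15 in the AZC + MG132 table (9803) and for NIP7 in the parental table (10948), while NCL was highest in each. The tables give depth and not fragments, so the number of fragments is unknown. Of 12 melanoma line markers 9 were listed in every table, and these 9 summed to levels of 1146, 1164 and 1325 in the edited, AZC + MG132 and parental tables. PMEL was not listed in the edited table, and TYR and TYRP1 were listed in none. Of 12 markers of other cell types 9 were listed in none, and the list summed to 11.01, 8.28 and 12.9 in the same order, with genes not listed counted as 0. KRT10 was its only gene listed in every table. Messenger abundance was not analysed here, so more messenger and more ribosomes per messenger cannot be told apart, nor can fewer cells with a messenger and less of it per cell.

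The box C/D core showed 1 gene apart from the other 3. FBL, the fibrillarin methyltransferase, had a level of 115.7 in the edited line, 119.8 under AZC + MG132 and 117.01 in the parental line. NOP58, one of the paired scaffold proteins that hold the guide RNA, had 129.1 in the edited, 142.5 in the treated and 127.4 in the parental table. SNU13, which binds the kink-turn of the guide RNA, had 98.2, 100.3 and 95.96 in the same order. NOP56, the other scaffold protein, had 130.8 in the edited line, 187.8 under AZC + MG132 and 192.3 in the parental line. FBL, NOP58 and SNU13 thus lay between log2 ratios of -0.02 and 0.03 in the edited over the parental line, while NOP56 stood at -0.56. That value is just short of 1.5-fold. NOP56 was lower in the edited table in the first 100 coding bins (-0.39) and in the last 100 (-0.67). In treated over parental cells all 4 lay between -0.03 and 0.16.

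The box H/ACA core varied more among its members. DKC1, the pseudouridine synthase dyskerin, had a level of 155.5 in the edited line, 126.6 under AZC + MG132 and 132.8 in the parental line. NHP2 had 50.8 in the edited, 59.2 in the treated and 51.7 in the parental table. NOP10, a small protein that binds dyskerin, had 52.3 in the edited line, 65.2 under AZC + MG132 and 44.9 in the parental line. GAR1, the glycine- and arginine-rich subunit of the mature particle, had 26.9 in the edited line, 49.8 under AZC + MG132 and 35.2 in the parental line. NOP10 and GAR1 were the highest of the snoRNP core in treated over parental cells, at log2 ratios of 0.54 and 0.50, while DKC1 was at -0.07. In the edited over the parental line GAR1 was at -0.39, and at -0.59 in coding bins alone. Against its own coding sequence, the 5′ UTR of GAR1 held 29.6% in the edited and 11.5% in the parental table. The edited table had depth in 71% of the 200 coding bins of GAR1, against 87.5% in the parental table.

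Among the assembly factors no ratio passed 1.5-fold. RUVBL1, an AAA+ ATPase of the complex that brings snoRNP proteins together, had a level of 92.6 in the edited, 77.8 in the treated and 83.1 in the parental table. Its partner ATPase RUVBL2 had 90.7 in the edited, 113.1 in the treated and 92.04 in the parental table. NOLC1, a phosphoprotein that escorts snoRNPs between nucleolus and Cajal bodies, had 125.04, 120.9 and 135.2 in the same order. Medians of log2 ratio for the edited over the parental line were 0.0015 in the box C/D core, 0.096 in the box H/ACA core and -0.02 in the assembly factors. For treated over parental cells they were 0.05, 0.35 and -0.09, beside a median of -0.05 over all 7279 genes compared. With 3 or 4 genes a set and single tables, these medians are a description.

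**Figure D1:**
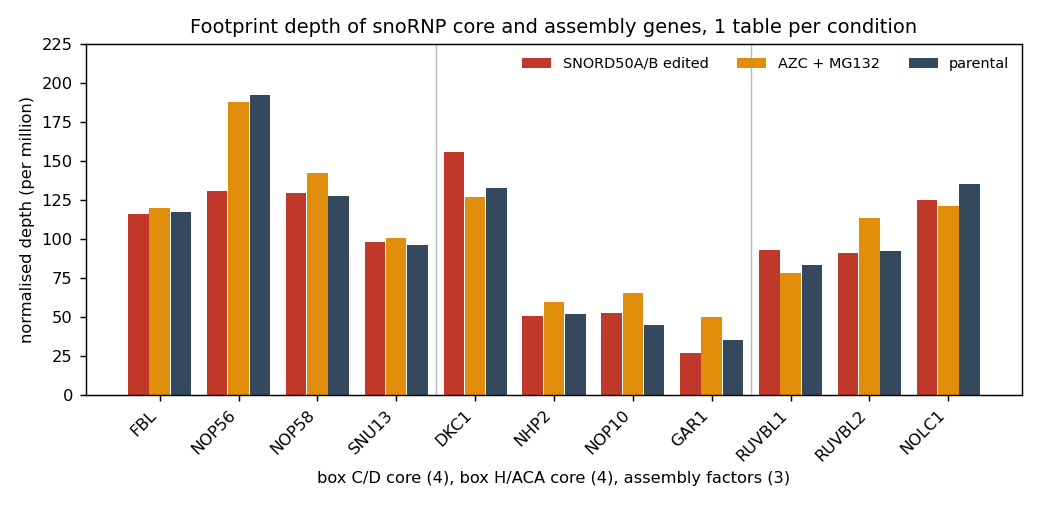
Normalised depth (linear axis) of the 4 box C/D core genes, the 4 box H/ACA core genes and the 3 assembly factors, 1 bar per table, with no replicate error. NOP56 stands at 130.8 in the edited line, against 192.3 in the parental line, and GAR1 at 26.9 in the edited line, against 35.2.

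NCL, nucleolin, an abundant RNA-binding protein of the nucleolus, had a level of 1824 in the edited line, 1296 under AZC + MG132 and 1240.2 in the parental line. Its log2 ratio for the edited over the parental line was 0.56, the highest among the 42, with 0.59 in the first and 0.53 in the last 100 coding bins. All 200 coding bins of NCL were covered in every table. NPM1, nucleophosmin, a histone chaperone of the nucleolus, had 1139 in the edited, 1097 in the treated and 1064 in the parental table. Processed copies of NPM1 in the genome can share its reads, so this value is uncertain. DDX21, an RNA helicase that binds snoRNAs and the ribosomal RNA precursor, had 160.4 in the edited, 162.03 in the treated and 176.2 in the parental table.

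Small subunit factors include those of the processome that folds and cuts the precursor of the small subunit. UTP4, a subunit of its early-binding complex, had a level of 28.9 in the edited line, 55.05 under AZC + MG132 and 54.2 in the parental line. Its log2 ratio for the edited over the parental line, -0.91, was the lowest among the 42 and the only one past 1.5-fold in that comparison. UTP4 was lower in the first 100 coding bins (-1.03) and in the last 100 (-0.69), and the edited table had depth in 67% of its coding bins, against 97% in the parental table. HEATR1, a large scaffold of the same early complex, had 103.3 in the edited, 171.8 in the treated and 125.2 in the parental table. UTP18, a propeller-fold subunit, had 49.2 in the edited line, 74.2 under AZC + MG132 and 61.3 in the parental line. UTP20, a very long helical-repeat protein, had 372.97, 357.8 and 345.2 in the same order. UTP15, whose depth was low in each table, had 18.6 in the edited, 26.7 in the treated and 23.6 in the parental table. The 14 small subunit factors had a median of -0.02 for the edited over the parental line, with 6 above 0, beside 50.4% of all genes. For treated over parental cells their median was 0.10, with 9 above 0, beside 44.7% of all genes.

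Of the large subunit factors, MRTO4 and NIP7 were past 1.5-fold in the treated cells. MRTO4, a placeholder for the stalk protein on the immature subunit, had a level of 59.9 in the edited line, 100.6 under AZC + MG132 and 63.8 in the parental line, which is a log2 ratio of 0.66 in treated over parental cells. NIP7, an RNA-binding factor of subunit maturation, had 17.2 in the edited, 35.5 in the treated and 23.1 in the parental table, a log2 ratio of 0.62 in treated over parental cells. The NIP7 ratio was 0.33 in coding bins alone. Its 3′ UTR bins held 29.6% of its coding depth in the treated cells, against 4.34% in the parental line. NOP16 had 37.1 in the edited, 60.2 in the treated and 44.8 in the parental table. GNL3, the GTPase nucleostemin, had 139.7 in the edited line, 124.8 under AZC + MG132 and 109.75 in the parental line. DDX18, an RNA helicase, had 127.2, 123.3 and 97.7 in the same order, so it was lowest in the parental table. The 11 large subunit factors had a median of -0.17 for the edited over the parental line, with 3 above 0, beside 50.4% of all genes. For treated over parental cells their median was -0.03, with 5 above 0, beside 44.7% of all genes.

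The 3 components of RNA polymerase I transcription had ratios on both sides of 0 in treated over parental cells. POLR1A, the largest polymerase subunit, had a level of 109.5 in the edited, 136.1 in the treated and 105.7 in the parental table. POLR1B, the second largest, had 45.7, 43.97 and 46.4 in the same order. UBTF, the factor that keeps ribosomal RNA genes open, had 71.2 in the edited line, 52.7 under AZC + MG132 and 75.7 in the parental line. The log2 ratio of UBTF in treated over parental cells, -0.52, was the lowest among the 42, and that of POLR1A was 0.36.

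**Figure D2:**
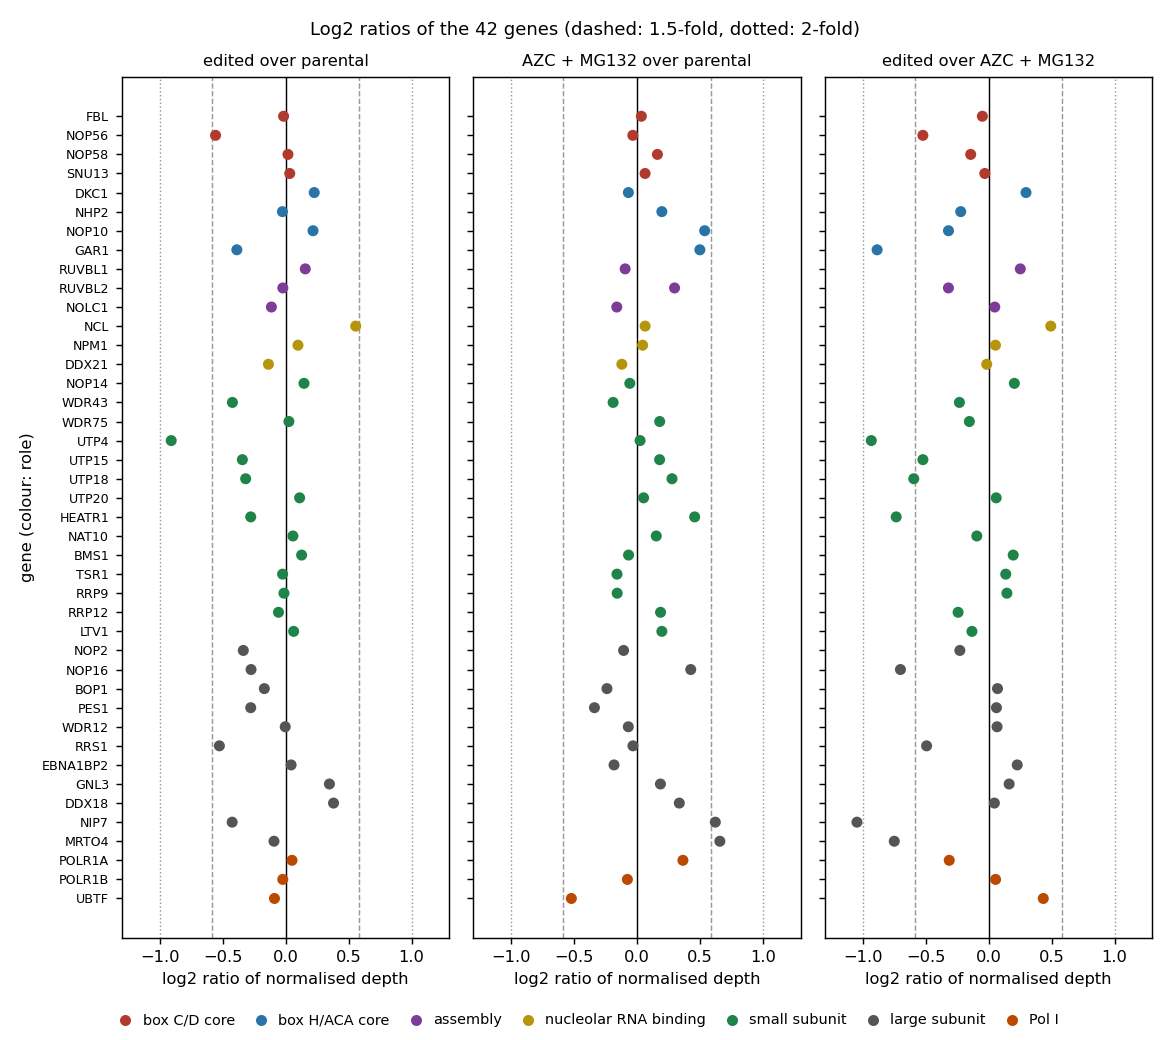
Log2 ratio of normalised depth (x axis) for each of the 42 genes (rows, coloured by role) in 3 comparisons, with dashed lines at 1.5-fold and dotted lines at 2-fold. Between the edited and the parental line only UTP4, at -0.91, is past 1.5-fold, and between the edited line and the treated cells 7 genes lie left of the dashed line, NIP7 lowest at -1.04.

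Over all 42 genes, the edited line set against the parental line compares footprint depth on the snoRNP machinery with and without an edit at a pair of box C/D guides. The log2 ratios had a median of -0.02 and an interquartile range of -0.28 to 0.06, with 17 above 0. Over the 7542 genes compared the median was 0.0041 and the interquartile range -0.24 to 0.25, and 50.4% were above 0. No member was 2-fold or more higher or lower, where 2.4% of all genes were. None was 1.5-fold or more higher and 1 of 42 was lower, where 7.17% of all genes were higher and 7.62% lower. Both shares of the 42 genes are below those of all genes. So were those of ribosomal protein genes (1.27% higher, 2.53% lower) and of translation initiation factors (5.88% and 0%), so low shares are not particular to the 42. The sign of the ratio was the same in the first and last 100 coding bins for 26 of the 42, a share near the 60.9% of all genes.

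The treated cells set against the parental line compare footprints on these genes after a short exposure to the analog and the inhibitor. The log2 ratios had a median of 0.05 and an interquartile range of -0.09 to 0.20, with 24 of 42 above 0. The 7279 genes compared had a median of -0.05, and 44.7% of them were above 0. Past 1.5-fold higher were 2 of 42 (4.76%), MRTO4 and NIP7, a share below the 6.75% of all genes. None of the 42 was 1.5-fold or more lower, beside 11.2% of all genes, and none was past 2-fold, beside 3.26%. In coding bins alone the median was 0.14 over the 42 genes and -0.02 over all genes. All 8 genes of the snoRNP core were above 0 there, between 0.06 for DKC1 and 0.43 for GAR1. So were 47.9% of all genes and 66.7% of the other ribosome biogenesis genes listed for this work. These ratios are scaled to the coding total of each table. Per total depth, the coding bins of NOP56 held 184.5 in the treated and 189.99 in the parental table, and those of DKC1 123.2 and 129.4. The rest of the core was higher in the treated table by that scale. The 34 translation initiation factors had a median of 0.0073 in this comparison, with 2.94% higher and 2.94% lower by 1.5-fold. Of ribosomal protein genes 1.27% were higher and 15.2% lower. The sign was the same in the first and last 100 coding bins for 21 of 42 genes, beside 62.3% of all genes. Each part is scaled to its own total, which removes a difference common to all genes. These signs therefore do not describe the change of depth within a gene.

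Between the edited line and the treated cells the ratios spread more. The median was -0.07 over the 42 genes, with 18 above 0, and 0.06 over the 7219 genes compared, with 54.1% above 0. Lower by 1.5-fold or more in the edited line were 7 of 42 (16.7%), a share above the 10.1% of all genes, and none was higher by as much, beside 14.4%. The 7 were NIP7 at -1.04, UTP4 at -0.93, GAR1 at -0.88, MRTO4 at -0.75, HEATR1 at -0.73, NOP16 at -0.70 and UTP18 at -0.59. NIP7 was the only one past 2-fold, where 6.5% of all genes were, and its value was -0.87 in coding bins alone. In coding bins UTP4 stood at -1.01 and GAR1 at -1.02. NCL was the highest of the 42, at 0.49.

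The spread of footprints over a gene differed between the tables, and this bears on how well a low gene is measured. By the median, the 42 genes had depth in 91% of their coding bins in the edited table, 98.5% in the AZC + MG132 table and 99.25% in the parental table, although the edited table held most depth. Over 7062 genes the medians were 69%, 81.5% and 90.5% in the same order. Fewer than 150 coding bins were covered for 6 of the 42 genes in the edited table and for 0 in each of the others. UTP4, NIP7 and GAR1, the lowest 3 of the edited line over the treated cells, had depth in 67%, 75% and 71% of coding bins in the edited table. What part sparse coverage has in those ratios was not tested. NOP56 and RRS1, which came next after UTP4 in the edited over the parental line at -0.56 and -0.53, had depth in 97.5% and 93.5% of them in that table.

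**Figure D3:**
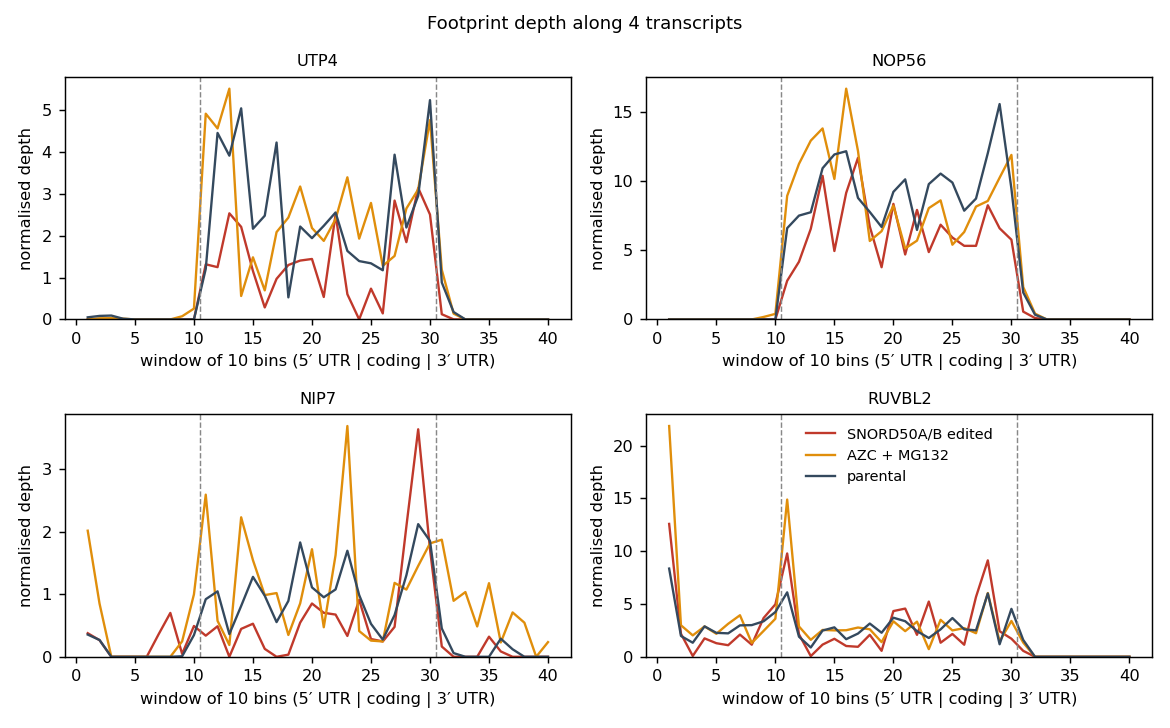
Normalised depth per window of 10 bins (y axis) along the 5′ UTR, coding sequence and 3′ UTR (x axis, dashed borders) of UTP4, NOP56, NIP7 and RUVBL2 in the 3 tables. RUVBL2 shows a peak in the first window of the 5′ UTR in each table, highest at 21.9 in the treated cells, and another in the first coding window. The 3′ UTR of NIP7 sums to 7.17 in the treated cells, against 0.92 in the parental line.

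Footprints lay nearer the start of the coding sequence in the treated cells than in the other tables. Here, 5′ share means average depth in the first 20 coding bins divided by average depth in all 200. Its median over the 42 genes was 1.11 in the edited line, 1.67 under AZC + MG132 and 1.15 in the parental line. The medians over 7062 genes were 0.96, 1.42 and 0.93 in the same order, so the median of these genes was higher than that of all genes in each table. In treated over parental cells the log2 ratio of 5′ shares, called 5′ shift, had a median of 0.57 over the 42 genes and of 0.60 over 6882 genes with depth there. It was above 0 for 40 of the 42, beside 79.7% of all genes, and 2-fold or more higher for 4 of the 42, beside 26.8%. The 5′ shift was likewise above 0 for 94.9% of ribosomal protein genes and 93.9% of translation initiation factors, so this share is not particular to the 42.

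NOLC1 had the largest 5′ shift of treated over parental cells, 1.72, with a 5′ share of 0.71 in the edited, 2.25 in the treated and 0.69 in the parental table. NOP16 followed at 1.25 and NHP2 at 1.18. At the other end stood GAR1, at -0.89, with a 5′ share of 0.42 in the edited, 0.37 in the treated and 0.69 in the parental table. NAT10, the acetyltransferase of small subunit ribosomal RNA, was at -0.32, and RRP9, which binds the U3 snoRNA, at 0.04. NCL, NPM1 and DDX21 lay together, between 0.75 and 0.76. The 8 snoRNP core genes had a median of 0.40, the 3 assembly factors of 0.97 and the ribosomal proteins of 0.78.

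**Figure D4:**
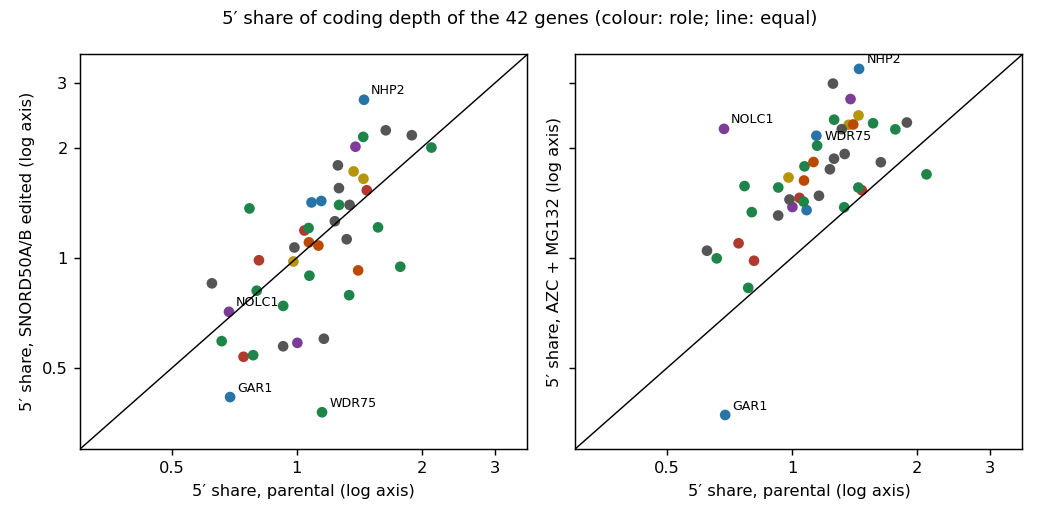
The 5′ share of each of the 42 genes in the edited line (left, y axis) and in the treated cells (right, y axis) against the parental line (x axis), on log axes, coloured by role as in the plot of log2 ratios, with a line where both are equal. In the treated cells 40 of the 42 points lie above the line, and GAR1, at 0.37 against 0.69, lies below it.

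In the edited over the parental line the 5′ shift had a median of 0.05 over the 42 genes, and 24 were above 0, beside 56% of all genes. NHP2 was highest at 0.90, followed by NOP14 at 0.83 and UTP15 at 0.57. WDR75, a processome subunit, was lowest at -1.61, with a 5′ share of 0.38 in the edited line, against 1.15 in the parental line. RRS1 stood at -0.95 and UTP18 at -0.91. Edited over treated, the median was -0.58, with 6 of the 42 above 0, beside 25.9% of all genes. UTP15 at 0.46, EBNA1BP2 at 0.29 and NAT10 at 0.24 were highest there, and WDR75 at -2.42, NOLC1 at -1.66 and POLR1B at -1.33 lowest.

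Along the coding sequence, cut into 10 windows of 20 bins and scaled to each gene's own coding mean, the treated cells had a median over the 42 genes of 1.67 in the first window, 1.14 in the second and 0.74 in the eighth, the lowest. The parental line had 1.15, 1.02 and 0.96 in those windows, and the edited line 1.11, 0.98 and 0.89. Over all genes the treated cells had 1.42 in the first window and a lowest value of 0.77 in the ninth. In the last window the 42 genes stood at 1.03 in the edited, 1.01 in the treated and 1.07 in the parental table.

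**Figure D5:**
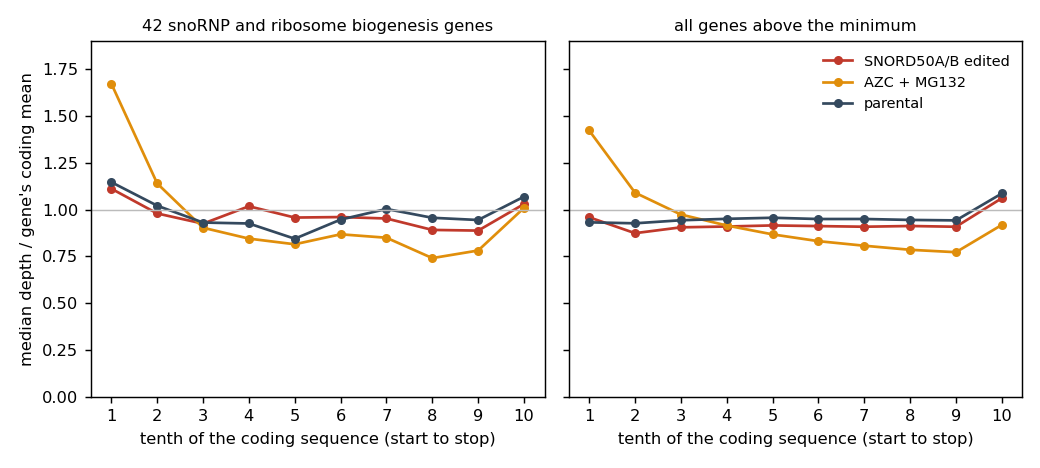
Median depth per window of 20 coding bins, each gene scaled to its own coding mean (y axis), from start to stop codon (x axis), for the 42 genes (left) and for 7062 genes above the minimum (right), 1 line per table. The treated line is at 1.67 in the first window of the 42 genes, against 1.15 for the parental line.

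Upstream of the coding sequence, 2 genes held, in every table, 5′ UTR depth above 25% of their coding depth. The share of all genes past this limit was not counted, so it serves only to name genes. RUVBL2 had 52.1% in the edited, 70.9% in the treated and 56.4% in the parental table. The first 10 bins of its 5′ UTR carried a normalised depth of 12.6 in the edited, 21.9 in the treated and 8.36 in the parental table, so part of it lay at the far end from the start codon. The first 10 coding bins of RUVBL2 carried 9.79, 14.9 and 6.10 in the same order. NHP2 had 29.7%, 33.1% and 26.1%, with 58.2%, 38.8% and 54.05% of its 5′ UTR depth in the 20 bins next to the start codon. Bins do not tell reading frames apart, and reads that span the start codon can enter the last 5′ UTR bins.

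As a percentage of coding depth, the median 5′ UTR depth of the 42 genes was 3.80 in the edited line, 7.06 under AZC + MG132 and 4.23 in the parental line. All 7062 genes had medians of 6.39%, 11.6% and 5.88%. The ratio was higher in treated than in parental cells for 39 of the 42, beside 83.5% of all genes, and higher in the edited than in the parental line for 27, beside 53.3%. By role, it was higher in the edited over the parental line for 11 of 11 large subunit factors, between 0.17 and 1.75 on the log2 scale, and for 6 of 14 small subunit factors. The further factors listed for each subunit did not show this split, with 52.2% of the large subunit ones and 58.1% of the small subunit ones higher. WDR12, which joins BOP1 and PES1 in a complex of the immature large subunit, had 30.4% in the edited, 39.9% in the treated and 11.1% in the parental table. WDR12 was picked after its values were seen.

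Some of these genes carry snoRNA genes within their span. By the RefSeq gene table, NOP56 and GNL3 each hold 5, NOP58 holds 4, NCL and WDR43 each hold 3, and DKC1 and TSR1 each hold 2. Of the edited over the parental line, the 7 host genes had a median log2 ratio of 0.02 and ran from -0.56 for NOP56 to 0.56 for NCL, while the other 35 had a median of -0.02. WDR43 stood at -0.42, TSR1 at -0.02, NOP58 at 0.02, DKC1 at 0.23 and GNL3 at 0.35. The host genes thus include the highest ratio of the 42 as well as a low one. In treated over parental cells the 7 lay between -0.19 and 0.19.

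Other genes of the pathway were taken from 5 lists. Of these, 10 for further snoRNP assembly had a median log2 ratio of -0.10 in the edited over the parental line, and none was past 1.5-fold. The 43 further small subunit factors had a median of -0.10, with 1 higher and 3 lower by 1.5-fold, and the 47 further large subunit factors a median of -0.08, with 2 higher and 2 lower. RNA polymerase I genes had a median of 0.13 over 10 compared, with 2 higher and 2 lower. The exosome and RNase MRP list had a median of -0.22 over 20 compared, with 3 lower, of which C1D, a nuclear exosome cofactor, was past 2-fold. C1D had a level of 9.61 in the edited line, 23.1 under AZC + MG132 and 21.02 in the parental line. Over the lists together 7.69% of the genes were 1.5-fold or more lower and 3.85% higher, beside 7.62% and 7.17% of all genes.

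In treated over parental cells the lists together had a median of 0.07, with 9 genes (6.82%) higher and 6 (4.55%) lower by 1.5-fold, beside 6.75% and 11.2% of all genes. TRMT112, the partner of several methyltransferases, was past 2-fold, with a level of 27.99 in the edited line, 40.9 under AZC + MG132 and 18.2 in the parental line. Medians by list were 0.07 for snoRNP assembly, 0.12 for small subunit, 0.06 for large subunit, 0.20 for RNA polymerase I and -0.02 for exosome and RNase MRP genes. The 5′ shift of these genes had a median of 0.74 and was above 0 for 95.3% of them.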

How the data were processed

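Ribosome-protected fragments of CHL-1 cells were read from 3 tables, 1 per condition, whose condition is known from the name of each table. The deposited values are log2(x + 1) per bin, where x is read from the values as summed read depth, with 100 bins for the 5′ UTR, 200 coding and 100 for the 3′ UTR. The submitters' processing notes name Bowtie2, TopHat2 and hg19, without versions, and the sources used here do not say how the libraries of a group were joined. In coding bins x also held the deposited value of the row above. After it was subtracted, 100% of coding bins with deposited values above 0 and below 4 were whole, against 5.23% to 5.79% before, and it was removed throughout. The tolerance was 0.006 plus the effect of an error of 0.005 in log2, at most 0.061 in all. Depth under 0.5 was set to 0. Gene names came from the RefSeq table of GRCh38.p14. Ratios used a pseudocount of 0.5 on summed depth and genes whose summed depth was over the 25% quantile of each table compared. Limits of 1.5-fold and 2-fold are sizes, not tests. Genes named are the snoRNP core and assembly factors, members past 1.5-fold, the 2 highest and the lowest per role, pathway genes past 2-fold, the 3 largest and smallest 5′ shifts, and 5′ UTR depth over 25% of coding depth in every table. Genes, lists and comparisons were chosen with earlier results of these data known. Removal of the carried value and the ratios were tried on tables simulated from parental depth with set folds. The simulation did not imitate the sparser coverage of the edited table, so it does not bear on that limit. Python 3.11.15, numpy 2.4.6 and pandas 2.3.3 were used.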

Additional observations from a re-analysis of the deposited data

How the results depend on the processing

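Over 13 settings the median log2 ratio of the 42 genes lay between -0.07 and 0.03 for the edited over the parental line, so its sign is not fixed, between 0.04 and 0.14 for treated over parental cells, and between -0.19 and -0.04 for the edited line over treated cells. Members 1.5-fold lower in the edited over the parental line numbered 1; 2 in coding bins only and in the middle 160 coding bins, 4 in the last 100 and 3 in the first 100, where 1 was higher and 2 were past 2-fold, and 0 with 150 covered bins required, which UTP4 lacks. Members 1.5-fold higher in treated over parental cells numbered 2, 1 with a minimum 4 times higher, with values as deposited, in coding bins only and in the middle 160, and 6 in the last 100. Past 2-fold in the edited line over treated cells was 1 gene, 2 in coding bins only and in the middle 160, 3 in the last 100 and 0 with the higher minimum, which drops NIP7. NIP7 ranged from -1.79 in the first 100 to -0.46 in the last 100 coding bins. The settings on the first 100 and middle 160 bins and on covered bins were added after the data were seen. No library could be left out, and no paired analysis was possible because the tables hold no column per library. Depth of single genes, unknown in fragments, limits the low members most.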
